A study of Mus musculus with 9 samples.

Results

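The imprinted miRNA region between Meg3 and Mirg on mouse chromosome 12 holds 2 hairpins within the non-coding gene Rian, Mir370 and Mir341, and their 4 mature arms were followed here across saline-treated, fibrotic and recovered liver. The members were the rows of the deposited table named for mmu-miR-370 or mmu-miR-341, 4 of 1140 rows in all and 4 of the 89 rows of the region. They were selected on measured values, the recovery and TAA levels of miR-370-3p, whose fall after withdrawal of thioacetamide exceeded that of most region rows. Of 46 region rows tested, 26 were lower in recovery than in TAA mice, with a median log2 fold change of -0.07. Because of the selection, the values of miR-370-3p in all comparisons, and those of both members in recovery vs TAA, are given as a description with no test.

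The livers of 9 mice gave one small RNA library each, all from male C57BL/6 animals without a named mutation that were 8 weeks old at the start. Control mice (n = 3) received normal saline intraperitoneally for 8 weeks, TAA mice (n = 3) received thioacetamide (TAA), a hepatotoxin that causes liver fibrosis, by the same route for 8 weeks, and recovery mice (n = 3) received the same TAA course followed by 8 weeks without injection. The recovery mice were killed later than both other groups, so withdrawal and elapsed time cannot be told apart. Libraries held 9071847 to 12983378 counts. A miRNA level is given below in CPM, a count divided by the library total and multiplied to a common size, scaled by TMM factors, which correct for the composition of a library, unless CPM of the library total is named.

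MiRNAs pair through their seed, bases 2 to 8, with target mRNAs and lower their stability or translation. The miRNAs between Meg3 and Mirg are transcribed from the maternal chromosome together with the long non-coding RNAs Meg3, Rian and Mirg, and they are abundant in embryo, placenta and brain and low in healthy adult liver. In liver, miR-370 has been linked to lipid metabolism, in part through Cpt1a, the enzyme that brings fatty acids into mitochondria. The whole liver was sequenced, so a change in the share of a cell type and a change within cells cannot be told apart for any value below.

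The mature 3p arms are shown first because they carried nearly all counts of both hairpins. Sequences are from RefSeq (GRCm38.p6, which has the coordinates of mm10), with the seed in capitals.
mmu-miR-370-3p: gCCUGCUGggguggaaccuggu
mmu-miR-341-3p: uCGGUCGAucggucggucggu
mmu-miR-370-3p lies at chr12:109618305-109618326 and mmu-miR-341-3p at chr12:109611556-109611576, both on the plus strand. Their seeds differ, and 0 other mature mouse miRNAs of the RefSeq table carried either seed. The sequence of each arm was found in 1 hairpin only, so reads of a different annotated hairpin with the same mature sequence do not enter these rows.

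The hairpins are shown to place the counted arm, which is in capitals.
Mir370: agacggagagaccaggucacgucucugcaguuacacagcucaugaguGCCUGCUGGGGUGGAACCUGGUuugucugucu
Mir341: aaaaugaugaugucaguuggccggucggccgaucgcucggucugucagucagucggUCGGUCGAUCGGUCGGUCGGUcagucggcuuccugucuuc
Mir341 (chr12:109611500-109611595) starts 6.76 kb before Mir370 (chr12:109618258-109618336). Both lie inside Rian (chr12:109603940-109661716) and overlap 0 of its annotated exons, so they are intronic. Mir341 is built of short repeats. The letters CGGU, read on the strand of the miRNA with overlaps allowed, occur 4 times in miR-341-3p and 7 times in its hairpin, and 4.81% of the 935 rows with a RefSeq sequence hold them at least once. Both arms are rich in G and C, with 68.2% in miR-370-3p and 66.7% in miR-341-3p against a median of 48.9% over the 86 region rows with a sequence. In the region 3 rows had a higher share than miR-370-3p and 7 a higher share than miR-341-3p.

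Nearly all reads came from the 3p arms. Over the 9 livers miR-370-3p had 880 counts and miR-370-5p 4, so that the 3p arm held 99.55% of the counts of the hairpin (95% Wilson interval 98.8% to 99.82%). For Mir341 the counts were 491 and 3, with 99.39% in the 3p arm (98.2% to 99.79%). miR-370-5p was counted in TAA replicates 1 and 2 only, with 1 and 3 counts, and miR-341-5p in TAA replicate 2 with 1 count and in recovery replicate 2 with 2 counts. Where a 5p arm had a count of 0, the upper Wilson limit ran from 0.296 (control replicate 1) to 0.419 CPM of the library total (TAA replicate 3). These intervals and limits cover counting error only. Neither 5p arm passed the filter on low counts in any comparison, so 2 of the 4 members were compared between groups.

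Both 3p arms were close to the limit of detection in control liver. miR-370-3p had 9, 4 and 3 counts in control replicates 1 to 3, or 0.875, 0.528 and 0.399 CPM. The counts of TAA replicates 1 to 3 were 98, 390 and 257 (6.04, 26.3 and 17.3 CPM). Recovery replicates 1 to 3 had 33, 39 and 47 counts (3.53, 3.58 and 4.31 CPM). The 3 groups did not overlap, with control lowest, recovery between and TAA highest. Groups without overlap were found for 66.7% of all rows tested between TAA and control mice, 53.4% between recovery and TAA mice, and 27.4% between recovery and control mice. The TAA mice differed most among themselves, with TAA replicate 1 well below the other two.

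miR-341-3p had 7, 3 and 1 counts in control replicates 1 to 3, or 0.681, 0.396 and 0.133 CPM. TAA replicates 1 to 3 had 63, 149 and 128 counts (3.89, 10.1 and 8.59 CPM). The counts of recovery replicates 1 to 3 were 41, 31 and 68 (4.38, 2.85 and 6.23 CPM). Control lay below every other mouse, and the TAA and recovery values overlapped. The lowest control value, 1 count, corresponds to 0.101 CPM of the library total with a Wilson interval of 0.0177 to 0.569, so the control level of miR-341-3p is known only roughly.

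**Figure D1:**
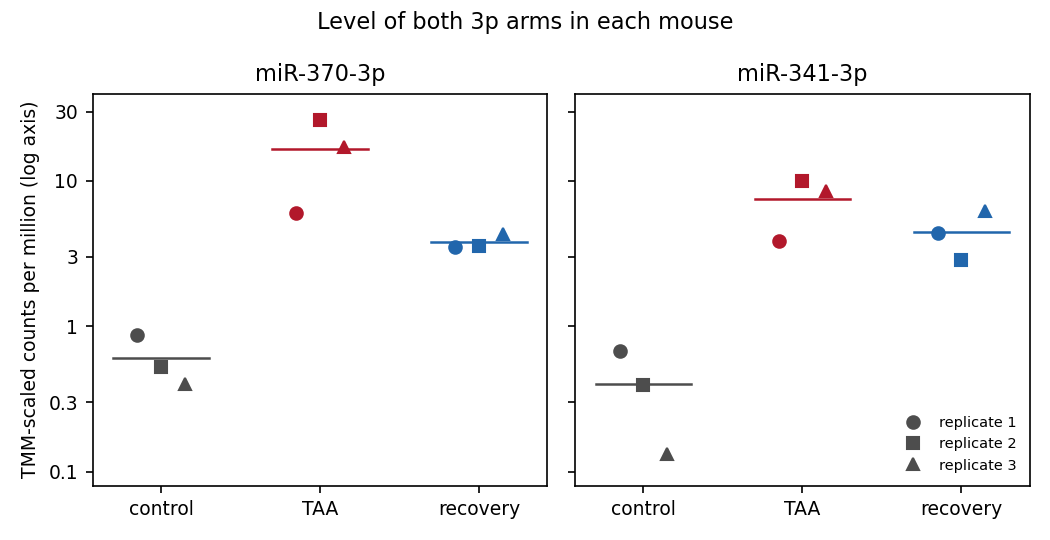
TMM-scaled CPM (log axis) of miR-370-3p and miR-341-3p in each mouse by group, with a symbol for each replicate and a line at the group mean. Recovery mice lie between control and TAA mice for miR-370-3p (3.53 to 4.31 CPM) and overlap with TAA mice for miR-341-3p (2.85 to 6.23 CPM).

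The first question was how the fibrotic liver of TAA mice differed from that of control mice. miR-341-3p rose from 0.403 ± 0.274 CPM (SD, n = 3) in control to 7.51 ± 3.23 CPM in TAA mice (log2 fold change 4.04, SE 0.608, adjusted p = 0.00122 by edgeR's quasi-likelihood test with Benjamini-Hochberg adjustment over 420 rows). Of all rows tested, 25% were up-regulated DEMs, that is, rows at an adjusted p below 0.05 whose level changed 2-fold or more. As the summed control counts were only 11, the ratio of the summed counts after scaling, 17.1, had a counting interval of 9.43 to 34.5, which leaves out the spread between mice. The row passed the filter on low counts through the TAA libraries only. Without the filter its log2 fold change was 4.05 and the row was still called. Leaving out control replicate 1, which held 7 of those 11 counts, raised the log2 fold change to 4.71 (adjusted p = 0.00479).

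For miR-370-3p the means were 0.601 ± 0.246 CPM in control and 16.5 ± 10.2 CPM in TAA mice, with a log2 fold change of 4.65 (SE 0.689), given without a test. Among the 41 region rows tested in this comparison, miR-370-3p had the highest log2 fold change and miR-341-3p the second highest, and they were 7th and 10th of all 420 rows. Of the 41 region rows that passed the filter, 40 were up-regulated DEMs, against 25% of all rows tested. The median log2 fold change of the 41 region rows was 3.14, against 0.11 over all rows tested. Of the 89 region rows, 43 to 47 had a count in a control mouse and 76 to 84 in a TAA mouse, so rows could pass through the TAA group alone. Without the filter 55 of 89 were up-regulated DEMs. The share of up-regulated DEMs over all 1085 rows of that fit was not counted.

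Comparison of recovery with control asked what was left after 8 weeks without TAA. miR-341-3p was still higher, at 4.49 ± 1.69 CPM in recovery mice (log2 fold change 3.32, SE 0.523, adjusted p = 0.00113 by edgeR over 391 rows), in a comparison in which 10.5% of rows were up-regulated DEMs. Its ratio of summed counts was 10.4 (counting interval 5.62 to 21.2), and leaving out control replicate 1 gave a log2 fold change of 3.98 (adjusted p = 0.00179). Here too the row passed the filter through the libraries of the higher group only, the recovery mice, and without the filter it was still called at 3.29. It ranked 11th of 40 region rows, near the region median of 3.09. miR-370-3p stood at 3.81 ± 0.434 CPM with a log2 fold change of 2.55 (SE 0.379, no test) and was 34th of the 40, with 6 region rows below it. It was thus among the lower rows of the region in recovery vs control and the highest in TAA vs control. The 2 comparisons share the control mice.

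Recovery vs TAA is the comparison by which miR-370-3p was picked. Its log2 fold change was -2.17 (SE 0.524), the lowest of the 46 region rows tested. miR-341-3p had a log2 fold change of -0.79 (SE 0.439) and was 7th from the bottom, and it ranged from -1.06 without recovery replicate 3 to -0.44 without TAA replicate 2. The median of the 46 rows was -0.07. The SD of miR-370-3p between mice was 61.4% of the mean for TAA and 11.4% for recovery. Without TAA replicate 2, which had the highest level, its log2 fold change was -1.58, and without TAA replicate 1, which had the lowest, it was -2.49.

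Leaving miR-370-3p aside as the row the choice rests on, 3 region rows were down-regulated DEMs and 1 was an up-regulated DEM in the same comparison, while 14.5% and 10.2% of all 440 rows were called in these directions. The down-regulated rows were miR-431-5p (log2 fold change -1.71), miR-369-5p (-1.66) and miR-410-3p (-1.43), and the up-regulated row was miR-376b-3p (1.81). The number of region rows past the threshold depended on single libraries. It is counted over all region rows, and no call of miR-370-3p is read from it because this comparison picked that row. With all 6 libraries the number counted in this way was 5 of 46 region rows tested. It was 13 of 53 without TAA replicate 1, 3 of 46 without TAA replicate 3 and 3 of 53 without recovery replicate 3. Without recovery replicate 1 or 2 it was 1 of 53, with 0 region rows in the downward direction. Scaling by library totals gave 17 region DEMs of 46 tested, 0 up-regulated and 17 down-regulated. The share of all rows called was not counted for these refits.

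**Figure D2:**
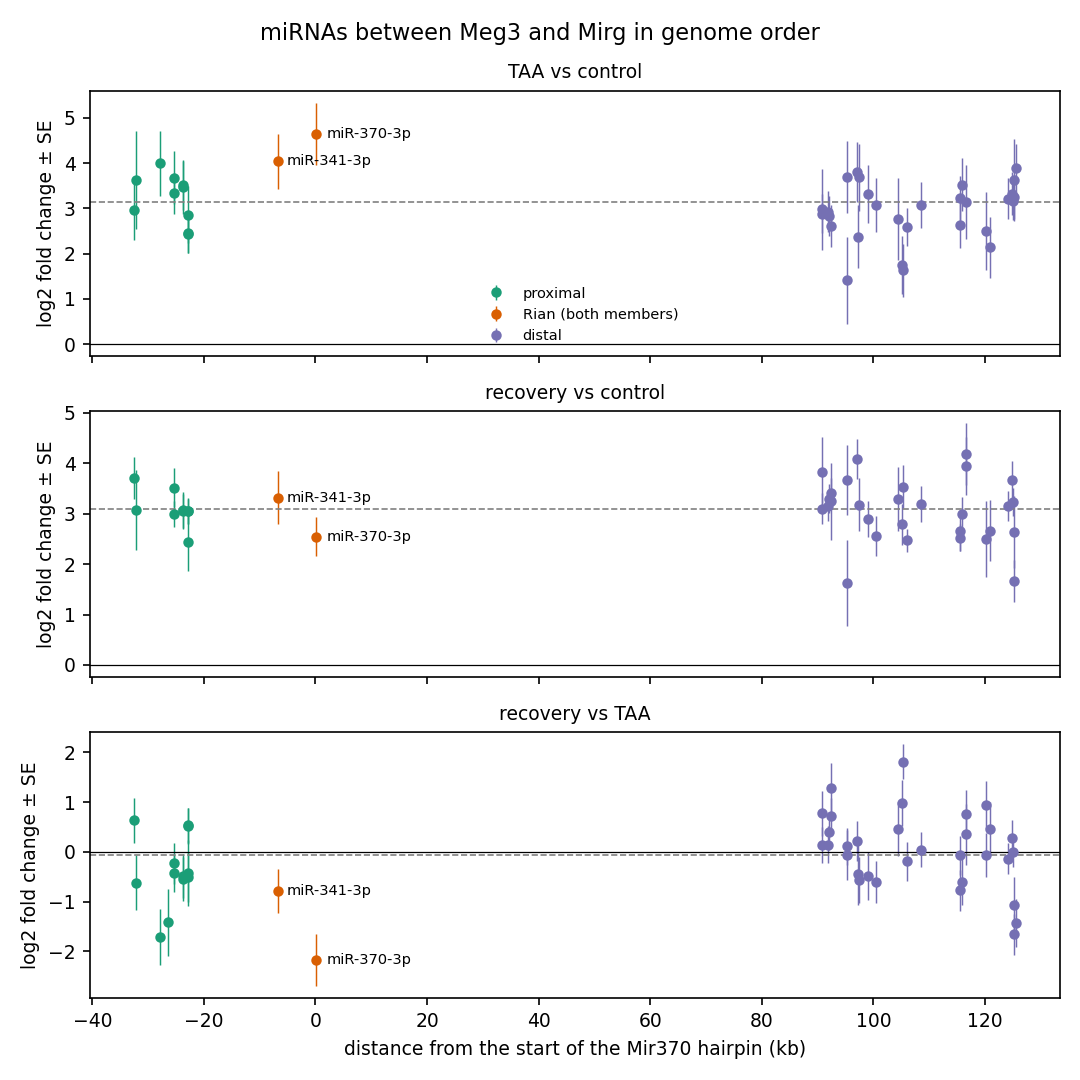
Log2 fold change ± SE (edgeR) of the region rows tested in each comparison, plotted by distance from the start of the Mir370 hairpin in kb, with both members in orange and a dashed line at the region median. miR-370-3p is the highest row in TAA vs control (4.65) and the lowest in recovery vs TAA (-2.17), while miR-341-3p lies closer to the region median in recovery vs TAA (-0.79 against -0.07).

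Of the rows tested in all 3 comparisons, the nearest before Mir341 are those of Mir136 and Mir3071, which overlap on opposite strands and had nearly the same counts (miR-136-3p and miR-3071-5p), and of Mir434. Mir136 starts 16.17 kb before Mir341. In recovery vs TAA their log2 fold changes were 0.53 for miR-136-3p, 0.52 for miR-3071-5p, -0.50 for miR-3071-3p and -0.48 for miR-434-3p, none of them a DEM. miR-136-5p, which was tested in this comparison only, had -0.42 and was not a DEM. The nearest such rows after Mir370 belong to Mir379 and Mir411, beginning 90.8 kb away. miR-379-5p, miR-379-3p, miR-411-5p and miR-411-3p had 0.14, 0.77, 0.15 and 0.39, again with 0 DEMs among them. In TAA vs control all 8 of these rows were up-regulated DEMs with log2 fold changes from 2.44 (miR-136-3p) to 3.46 (miR-434-3p), and in recovery vs control from 2.44 (miR-3071-3p) to 3.83 (miR-379-3p). The 12 proximal rows tested, encoded before Rian, had a median of -0.45 in recovery vs TAA, and the 32 distal rows, from Mir379 onward, had a median of 0.08.

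Because the TMM factors differed between the groups (0.738 to 0.792 in control, 1.433 to 1.633 in TAA and 0.766 to 0.887 in recovery mice), both members were also expressed as a share of all region counts, which needs no scaling between libraries. miR-370-3p held 0.584%, 0.167% and 0.181% of the region counts in control replicates 1 to 3. The TAA replicates 1 to 3 had shares of 0.6%, 1.02% and 0.738%. Recovery replicates 1 to 3 had 0.222%, 0.189% and 0.17%. All TAA shares were above all recovery shares. How many other region rows had shares that separated in this way was not counted, for this member or for miR-341-3p. In CPM, 53.4% of all rows tested did not overlap between recovery and TAA mice. Control replicate 1, with 9 counts, had a share near that of TAA replicate 1.

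The share of miR-341-3p was steady in the TAA mice, at 0.386%, 0.389% and 0.368%. It was 0.276%, 0.15% and 0.246% in recovery replicates 1 to 3, all below the TAA shares, and 0.454%, 0.125% and 0.0604% in control, where it rested on 7, 3 and 1 counts. The drop from the TAA mean to the recovery mean was from 0.381% ± 0.0115 to 0.224% ± 0.0657 (SD, n = 3) for miR-341-3p and from 0.785% ± 0.213 to 0.194% ± 0.0264 for miR-370-3p.

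The ratio of miR-370-3p to miR-341-3p counts was 1.56, 2.62 and 2.01 in TAA replicates 1 to 3. For recovery replicates 1 to 3 it was 0.805, 1.26 and 0.691. Thus miR-370-3p exceeded miR-341-3p in every TAA mouse and was below it in 2 of 3 recovery mice, without any overlap of the ratio between these groups. Because miR-370-3p was chosen for its fall between these groups, this separation is a description. In control mice the ratio was 1.29, 1.33 and 3.0, the last from 3 counts and 1 count.

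**Figure D3:**
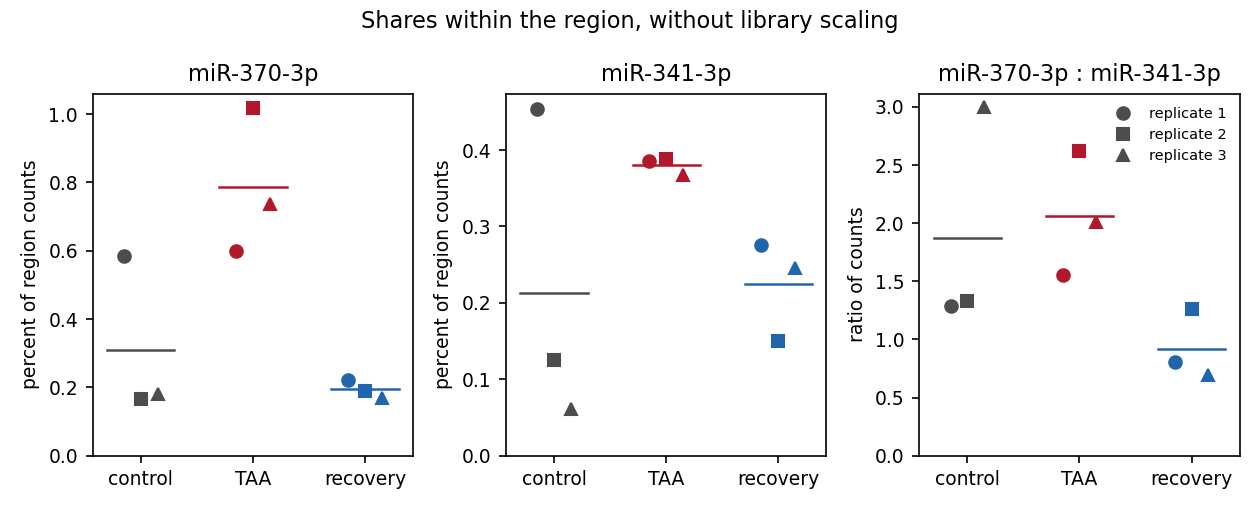
Percent of all region counts held by miR-370-3p and by miR-341-3p, and the ratio of their counts, in each mouse by group with a line at the group mean. TAA mice lie above recovery mice in all 3 panels, and control mice, with 1 to 9 counts for each member, are widely spread.

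The part of the TAA-related difference still present in recovery was 20.1% for miR-370-3p and 57.4% for miR-341-3p on the TMM scale, taken as the recovery mean less the control mean over the TAA mean less the control mean. The remaining region rows, summed, gave 102%. By library totals the same quantities were 10.6%, 29.7% and 51.8%, so their size depended on the scale. Their order was the same on both scales. As miR-370-3p was chosen for its fall after withdrawal, its low value here is a description. The sum gives most weight to abundant rows. On the TMM scale miR-411-5p alone gave 116%, and miR-434-3p gave 71.8%. A partial return was not particular to the members. Means in control, TAA and recovery mice were 0.198, 3.46 and 1.07 CPM for miR-431-5p and 0.625, 6.4 and 2.06 CPM for miR-369-5p. miR-376b-3p went the other way, with 1.26, 4.03 and 14.5 CPM.

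Over the 9 mice the 5 rows most like miR-370-3p in log2(CPM + 1), among 440 rows with enough counts, all lay in the region. They were miR-431-5p (Pearson's r = 0.978), miR-369-5p (0.97), miR-433-3p (0.958), miR-410-3p (0.957) and miR-382-5p (0.944). Those most like miR-341-3p were miR-134-5p (0.978), miR-382-5p (0.975), miR-543-3p (0.975), miR-434-3p (0.973) and miR-127-3p (0.967). Of the 20 rows most like each member, 12 lay in the region for miR-370-3p and 20 for miR-341-3p. The 439 rows compared held 45 region rows. The members had r = 0.941 with each other. These values describe 9 libraries in 3 groups that all rows share, and no p is attached. The 5 partners named for miR-370-3p were spread over the region. Of these, miR-431-5p and miR-433-3p were among the proximal rows and miR-369-5p, miR-410-3p and miR-382-5p among the distal rows. miR-431-5p had 1.36, 4.66 and 4.36 CPM in TAA replicates 1 to 3, against 0.748, 0.919 and 1.56 CPM after recovery. miR-411-5p, the row of the region with the most counts, had 267, 670 and 655 CPM in TAA and 465, 591 and 759 CPM in recovery mice. TAA replicate 1 was the lowest TAA mouse in both rows, as for both members.

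**Figure D4:**
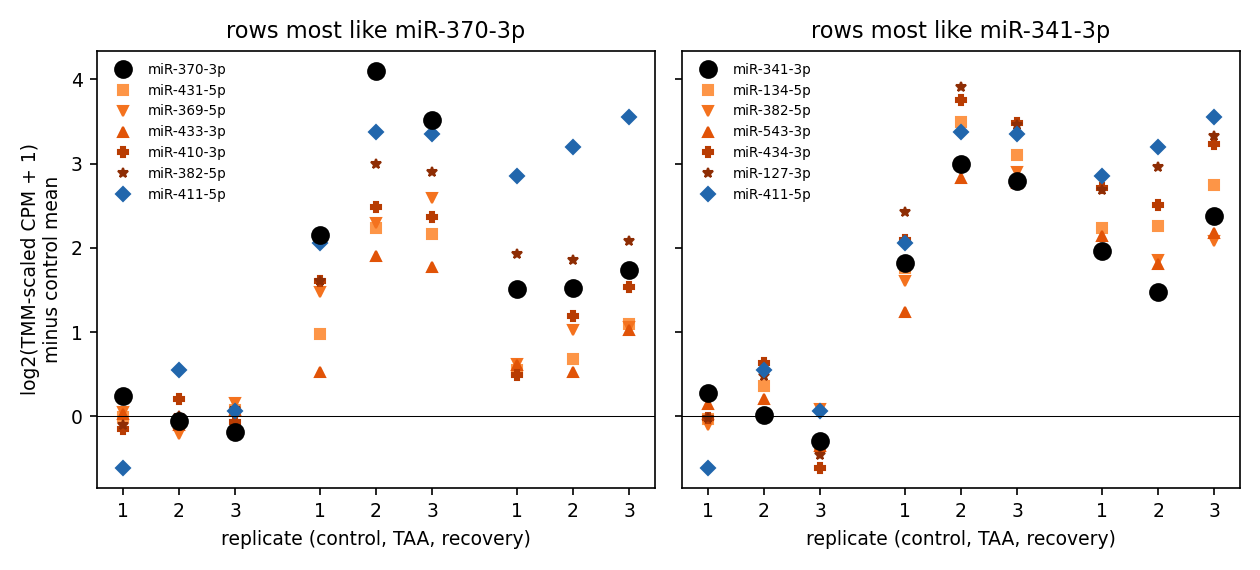
Log2(TMM-scaled CPM + 1) minus the control mean in each mouse, for each member (black circles), the 5 rows most like it (orange symbols) and miR-411-5p (blue diamonds). The partners of miR-370-3p, picked for their likeness to it, lie lower in all recovery mice than in TAA replicates 2 and 3. In TAA replicate 1 this does not hold for all of them, with miR-382-5p at 6.41 CPM against 7.81 to 9.34 CPM in recovery mice. These partners and miR-411-5p lie above the control mean in all TAA and recovery mice, and miR-411-5p is highest in recovery replicate 3.

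Across the 44 region rows with a sequence tested in recovery vs TAA, the log2 fold change had a Pearson's r of -0.35 with the G and C content, and -0.21 over the 42 rows other than the members. In TAA vs control the values were 0.41 over 39 rows and 0.24 over 37. These are descriptions across rows of the same libraries, and the part of base composition in the members' values was not tested.

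Marker miRNAs of some cell types differed between the groups. Of the 2 endothelial markers, 0 were DEMs in any comparison. Of the 3 red cell markers, 1 was a down-regulated DEM in TAA vs control, 1 in recovery vs control and 0 in recovery vs TAA. The 3 hepatocyte markers (among them miR-122-5p) summed to 362000 to 377000 CPM in control, 107000 to 114000 in TAA and 273000 to 402000 in recovery mice. All 3 were detected in every group. They were 3 of 3 down-regulated DEMs in TAA vs control, 3 of 3 up-regulated DEMs in recovery vs TAA and 0 DEMs in recovery vs control. The 5 biliary epithelial markers of the miR-200 family rose in TAA mice (5 of 5 up-regulated DEMs, summed level 3330 to 5530 CPM against 582 to 764 CPM in control) and fell in recovery vs TAA (5 of 5 down-regulated DEMs, 1240 to 1420 CPM). Of the 5 stellate cell and fibroblast markers, 3 were up-regulated DEMs in TAA vs control and 3 were down-regulated DEMs in recovery vs TAA, with summed levels of 18000 to 39500 CPM in TAA, 25500 to 31100 CPM in control and 21900 to 35800 CPM in recovery mice. Of the 4 leukocyte markers, miR-223-3p was an up-regulated DEM in TAA vs control (log2 fold change 1.15) and a down-regulated DEM in recovery vs TAA (-1.11), and the list summed to 187 to 208 CPM in control, 262 to 310 in TAA and 141 to 217 in recovery mice. Of the 2 neuronal markers, miR-124-3p was at 0 in all control and recovery mice. The other, miR-9-5p, was an up-regulated DEM in TAA vs control (1.03), with 13.0, 5.0 and 12.4 CPM in TAA replicates 1 to 3 against 4.39 to 4.88 CPM in control. The part of cell composition in the members' values was not tested.

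TAA replicate 3 stood apart in muscle miRNAs. miR-1a-3p, miR-133a-3p and miR-206-3p summed to 4730 CPM in this library and to 8.76 to 49.1 CPM in the other 8. Both members were highest in TAA replicate 2 and next highest in TAA replicate 3. The part of muscle RNA in the members' values was not tested. Without TAA replicate 3 the log2 fold change of miR-341-3p in TAA vs control was 3.96 (adjusted p = 0.00462 by edgeR), and that of miR-370-3p was 4.65. In recovery vs TAA the value of miR-370-3p was -2.07 without this library.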

How the data were processed

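Per the methods of the study, total RNA was extracted with TRIzol, small RNA libraries were made with a NEBNext kit, and reads were mapped to mm10 and to mature miRNAs of miRBase with Bowtie (version 1.3.0). How reads matching several miRNAs and their strand were handled was not given in the sources used here. The authors deposited raw read counts for 1140 rows, of which 34 were predicted miRNAs. They also deposited values called TPM, which equalled the counts scaled by the library total (CPM) within 5.0e-05 and were not used further. Since a few miRNAs take most counts, CPM of the library total shifts when those change.

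Pairs of groups were compared on the 6 libraries concerned with edgeR (version 4.0.16, R 4.3.3): filterByExpr (minimum count 10), TMM factors, quasi-likelihood F test without covariates, and Benjamini-Hochberg adjustment over all rows tested. SE is the log2 fold change over the square root of F. Alternatives were DESeq2 (version 1.42.0), other scalings and filters, a fit of 9 samples, removal of miR-122-5p with miR-122b-3p, and a replicate block. The fits were tested on simulated data. Per the study the libraries came from 9 mice, and no pair of libraries of the same group agreed within sampling noise. The labels named no batch.

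Region rows were those with a RefSeq position (86) or a GENCODE M21 hairpin (3) between Meg3 and Mirg in GRCm38. Named rows were the members, the 5 rows most correlated with each, the 4 nearest region rows on either side that were tested in all 3 comparisons, region DEMs of recovery vs TAA, and the region row with the most counts. The members and lists were chosen with earlier results of these data known.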

Additional observations from a re-analysis of the deposited data

How the results depend on the processing

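miR-341-3p kept both of its calls against control under every alternative that gave a value. Its log2 fold change was 3.65 to 4.71 for TAA and 2.93 to 3.98 for recovery mice when each library was left out in turn, and its highest adjusted p by edgeR was 0.0071 and 0.00918. Requiring a mean of 10 CPM removed this row from all comparisons and miR-370-3p from recovery vs control. By library totals, which moved the median log2 fold change of all rows relative to TMM by 1.12 between TAA and control, -0.86 between recovery and TAA, and 0.18 between recovery and control mice, miR-370-3p had 5.76 in TAA vs control and miR-341-3p -1.66 in recovery vs TAA. Leaving out single libraries gave miR-370-3p 2.32 to 2.96 in recovery vs control. Counted over all region rows, the number past the threshold in recovery vs TAA was 5 of 46 tested with the settings used above. It was 17 of 46 by library totals and 11 of 89 without a filter on low counts. With the 10 CPM filter it was 1 of 21, and it was 1 to 13 when each library was left out. Against control the 10 CPM filter gave 16 of 16 region rows tested for TAA and 12 of 12 for recovery mice. The share of all rows called was not counted under these alternatives. No call of miR-370-3p is read from these numbers. Of the 10 rows named as most alike, 6 remained by library totals.

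The replicate numbers did not mark the same animal, and deviations of same-numbered mice correlated between -0.24 and 0.24. With the replicate number as a block, the log2 fold changes of miR-341-3p against control were 3.89 for TAA and 3.31 for recovery mice, and no call of it changed.

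The shares of region counts in control, TAA and recovery mice depended on the denominator by construction. With the proximal rows alone they were 1.16%, 2.69% and 0.787% for miR-370-3p and 0.783%, 1.32% and 0.914% for miR-341-3p. With the distal rows alone the TAA and recovery shares were 1.13% and 0.259%, and 0.545% and 0.299%. Without miR-411-5p they were 1.07% and 0.278%, and 0.52% and 0.32%. The TAA share remained above the recovery share in each case. Leaving out the minus-strand rows, chosen after seeing the data, changed each share by less than its SD. Control counts of 1 to 9 limit all values relative to control.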
